A study of Mus musculus with 12 samples.

Results

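The genes described here are the nuclear genes for the subunits of mitochondrial complexes I, III, IV and V, measured by RNA sequencing in B cells that were isolated from intestinal Peyer's patches (PP) after sham surgery or stroke. They were taken by symbol alone, as the Nduf genes of the a, b, c, s and v series, the Uqcr genes, the Cox4 to Cox8 genes and the Atp5 genes, leaving out names that carry -ps, the mark of an annotated pseudogene. The rule uses no measured value, although the set was chosen with earlier results of these data known. It held 85 of the 36175 genes in the deposited table, namely 40 of complex I, 8 of complex III, 19 of complex IV and 18 of complex V.

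All 12 mice were male wild-type C57BL/6JHsd animals, 10 to 12 weeks old, that were allocated at random to surgery. In the 6 mice labelled brain injury, called stroke mice here, the middle cerebral artery was occluded for 1 h and then reopened, and the 6 sham controls had sham surgery. B cells were enriched magnetically from PP 18 h after surgery, first by removing other cells and then with CD45 beads, a step added to lower the share of epithelial and endothelial cells, and each mouse gave its own library of total RNA. The deposited values are an expression signal derived from TPM, the length-corrected abundance of transcripts within a library, and normalized between libraries, so levels of different genes can be set side by side. These are bulk samples, in which fewer cells of a type and less RNA per cell cannot be told apart.

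Oxidative phosphorylation couples the oxidation of nutrients to the synthesis of ATP at the inner mitochondrial membrane. Complex I takes electrons from NADH, complex III passes them from ubiquinol to cytochrome c, complex IV hands them to oxygen, and complex V uses the proton gradient that these complexes build to make ATP. Most subunits come from nuclear genes and are imported, whereas a small set is encoded by mitochondrial DNA. In B cells the pathway is used most heavily during activation, germinal centre growth and antibody secretion.

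The nuclear genes lie on many chromosomes and are thought to be coordinated partly through promoter elements for NRF1 and for ETS family factors such as GABP. The 250 bases before the start site are shown for 5 genes, the most abundant subunit of each complex that had a RefSeq entry or, for complex IV, the pair of subunits with the widest ranges between mice among the tested protein-coding genes. All are from RefSeq on GRCm38.p6, written 5′ to 3′ on the gene's strand in lower case. Capitals mark each match, on either strand, to the NRF1 core GCATGCGC or the ETS core CCGGAAG. Atp5b, the catalytic beta subunit of ATP synthase, is at chr10:128083057-128083306 on the plus strand. Uqcrh, the hinge protein of complex III, is at chr4:116075071-116075320 on the minus strand. Ndufa6, an accessory subunit of complex I, is at chr15:82354292-82354541 on the minus strand. Cox6a1, the widely expressed form of subunit VIa of cytochrome c oxidase, is at chr5:115348959-115349208 on the minus strand. Cox7a1, the heart and muscle form of subunit VIIa, is at chr7:30183921-30184170 on the plus strand.
Atp5b: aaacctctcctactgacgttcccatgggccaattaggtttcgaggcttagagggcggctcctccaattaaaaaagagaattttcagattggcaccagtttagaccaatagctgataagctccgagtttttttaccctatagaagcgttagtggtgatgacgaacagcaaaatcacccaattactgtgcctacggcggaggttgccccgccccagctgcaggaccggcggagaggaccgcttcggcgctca
Uqcrh: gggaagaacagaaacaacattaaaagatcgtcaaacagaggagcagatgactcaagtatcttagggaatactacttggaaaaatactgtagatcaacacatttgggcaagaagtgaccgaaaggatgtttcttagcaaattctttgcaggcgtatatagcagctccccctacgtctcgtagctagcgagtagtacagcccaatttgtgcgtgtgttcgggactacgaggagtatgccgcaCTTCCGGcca
Ndufa6: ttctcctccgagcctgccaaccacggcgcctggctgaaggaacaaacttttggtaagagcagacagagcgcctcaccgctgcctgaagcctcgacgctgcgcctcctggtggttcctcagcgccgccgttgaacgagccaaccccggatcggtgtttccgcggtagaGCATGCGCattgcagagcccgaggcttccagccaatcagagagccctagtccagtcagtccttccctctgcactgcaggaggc
Cox6a1: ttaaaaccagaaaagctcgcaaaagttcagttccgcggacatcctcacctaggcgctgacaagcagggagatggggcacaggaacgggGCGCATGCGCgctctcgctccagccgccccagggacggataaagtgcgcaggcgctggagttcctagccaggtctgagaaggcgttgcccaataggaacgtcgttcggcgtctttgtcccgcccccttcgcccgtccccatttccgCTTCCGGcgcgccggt
Cox7a1: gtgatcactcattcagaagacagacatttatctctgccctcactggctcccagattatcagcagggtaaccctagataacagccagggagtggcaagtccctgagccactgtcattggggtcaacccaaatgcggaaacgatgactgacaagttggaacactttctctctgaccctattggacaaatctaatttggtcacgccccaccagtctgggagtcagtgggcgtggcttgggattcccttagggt

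In Uqcrh the ETS core lay on the reverse strand, its first base 10 bases before the start. Ndufa6 held the NRF1 core 83 bases before the start. Cox6a1 held an ETS core on the reverse strand, 16 bases before the start, and a palindromic stretch that matched the NRF1 core on both strands, in overlapping matches at 162 and 160 bases before the start. Atp5b and Cox7a1 held neither motif in this window, which says nothing about the factors themselves. A RefSeq promoter was matched for 65 of the subunit symbols. The NRF1 core was in 7 of them (10.8%), compared with 2.3% of 27025 promoters of the same length, and the ETS core in 10 (15.4%), compared with 7.14%. The YY1 core AAGATGGC was in none of the 65 and in 1.58% of all promoters. For subunit genes the window nearest the annotated gene start was used. For all promoters the first window of each gene by position was used, with no filter on expression, so the shares are only roughly comparable.

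The deposited values of the 12 libraries differed in their totals, which ran from 559570 in sham mouse 6 to 1404340 in sham mouse 1, and the 5 most abundant genes took between 10.7% and 42.7% of the total. The table gives no read counts, so the depth of each library is unknown. B cell markers were high in all 12 mice, with summed values of 8 genes between 2409 and 3028 in sham controls and between 1635 and 2760 in stroke mice. Markers of other cells were present too. The summed value of 10 intestinal epithelial markers was 2298 in sham mouse 1 and 2047 in sham mouse 2, ran from 35.3 to 817 in the other sham controls and from 33.1 to 1298 in stroke mice. For 7 plasma cell markers the sums ran from 295 to 1487 and from 372 to 1086, again highest in sham mice 1 and 2 and lowest in sham mouse 6. The sum of 4 macrophage and monocyte markers, mostly Lyz2, was 274 and 182 in sham mice 1 and 2, the highest of the 12, and 25.6 in sham mouse 6, the lowest, and ran from 36.04 to 145 in stroke mice. Adgre1, which defines macrophages, was at most 1.44. Other lists had other high mice. The sum of 7 germinal centre B cell markers was highest in stroke mouse 3 (414) and lowest in sham mouse 6 (184). It was 201 and 262 in sham mice 1 and 2. For 7 T cell markers it ran from 37.5 in stroke mouse 4 to 141 in stroke mouse 1. For 5 endothelial markers, mostly Pecam1, it ran from 79.2 in sham mouse 1 to 111 in stroke mouse 4. The 4 erythroid markers summed to at most 26.8. Neutrophil and muscle markers were close to 0, with sums of at most 3.99 over 5 neutrophil genes and 5.46 over 5 muscle genes, and Ly6g, S100a8, Des and Myl9 below 1 in every mouse.

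The nuclear subunit genes were well expressed in PP B cells of both groups. Summed over the 85 genes, the value was 9466, 10069, 6013, 5485, 6562 and 2970 in sham mice 1 to 6. In stroke mice 1 to 6 it was 7647, 5352, 6554, 4790, 4350 and 5029. The range of the stroke mice lay inside that of the sham controls, whose lowest and highest mice differed 3.39-fold. As a share of each library's total the sum was between 0.531% and 0.749%, a 1.41-fold range. The order of the mice thus followed the size of the library's total in part, and the totals are not a measure of sequencing depth.

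**Figure D1:**
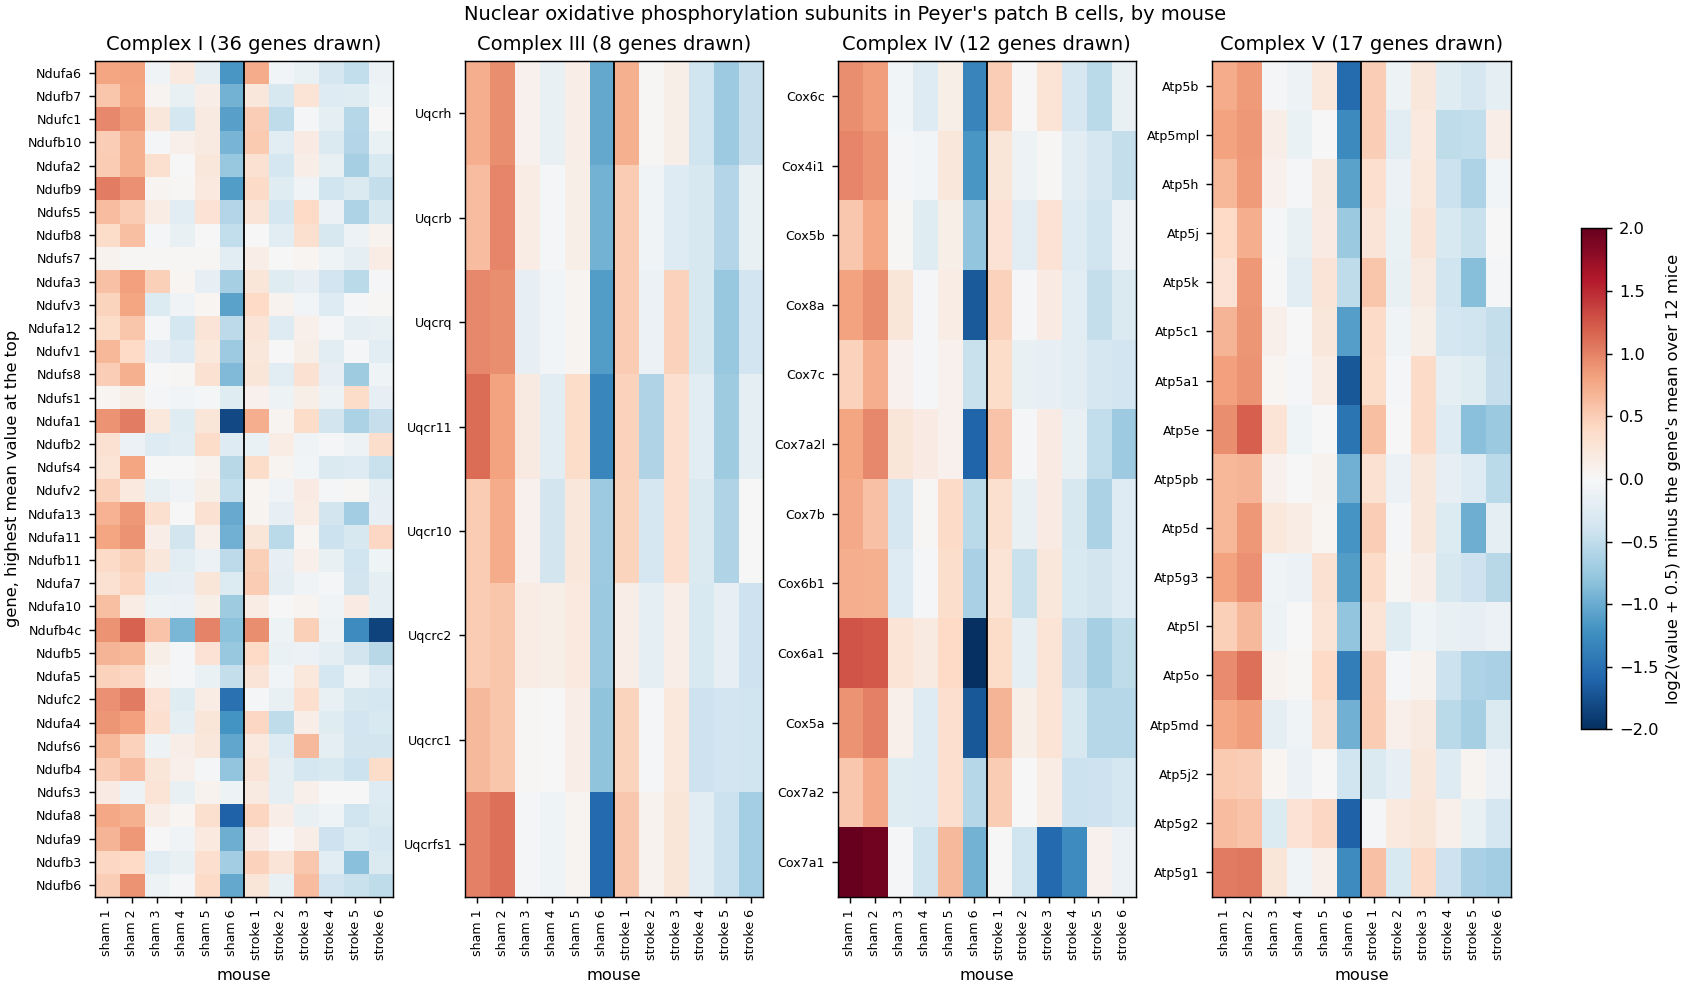
Deposited values of 73 of the 74 tested nuclear subunit genes in 12 mice, as log2(value + 0.5) minus the gene's mean over the mice, one panel for each complex and one column for each mouse (sham controls left of the line, stroke mice right; colours end at -2 and 2). Sham mice 1 and 2 are high and sham mouse 6 is low in nearly every row, whereas Ndufs1, Ndufs3 and Ndufs7 hardly vary.

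The comparison of stroke mice with sham controls asks how the transcripts of PP B cells stand 18 h after ischaemic brain injury. A gene was tested with limma on log2(value + 0.5) if it reached a value of 1 in each of the 12 mice, which 12590 genes and 74 of the 85 subunit genes met. With the added 0.5, fold changes of weakly expressed genes come out too small. None of the 74 was called at an unadjusted limma p under 0.05 in either direction, where 4.42% of all genes tested were called higher and 1.69% lower in stroke mice. The smallest limma p among them was 0.0516, and the adjusted p-values (Benjamini-Hochberg over all 12590 genes) ran from 0.791 to 0.998. Of all genes tested, 0 passed an adjusted p under 0.05, 557 were higher and 213 lower at the unadjusted threshold, and the smallest adjusted p was 0.468. No subunit gene had groups that did not overlap, which 0.437% of all genes tested had.

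By point estimate 68 of the 74 subunit genes were lower in stroke mice (91.9%, compared with 48.6% of all genes tested), and their median log2 fold change was -0.20, compared with 0.01 for all genes tested. The direction changed with the sham mice included. Without both sham mice 1 and 2, the highest, 12 of 74 genes were lower and the median was 0.11, with 0.05 for all genes, whereas without sham mouse 6, the lowest, as well, 64 were lower and the median was -0.14, with 0.0031 for all genes. Without sham mouse 1 alone 53 genes were lower (median -0.08), and without sham mouse 2 alone 49 were lower (median -0.05). Leaving out sham mouse 6 alone gave 72 lower genes and a median of -0.41, and 23 of the 74 genes were then called lower at an unadjusted limma p, where 9.20% of all genes were. With each library rescaled to the same total, 51 genes were lower and the median was -0.07, while the median of all genes moved to 0.13. Sham mice 1 and 2 also had the highest sums of epithelial, plasma cell and macrophage markers. Sham mouse 6 had the lowest sums of plasma cell and macrophage markers. Within these lists Jchain and Lyz2 had the highest plasma cell and macrophage values, whereas Prdm1, Tnfrsf17, Itgam and Adgre1 did not share this order. The part of those cells in the result was not tested.

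**Figure D2:**
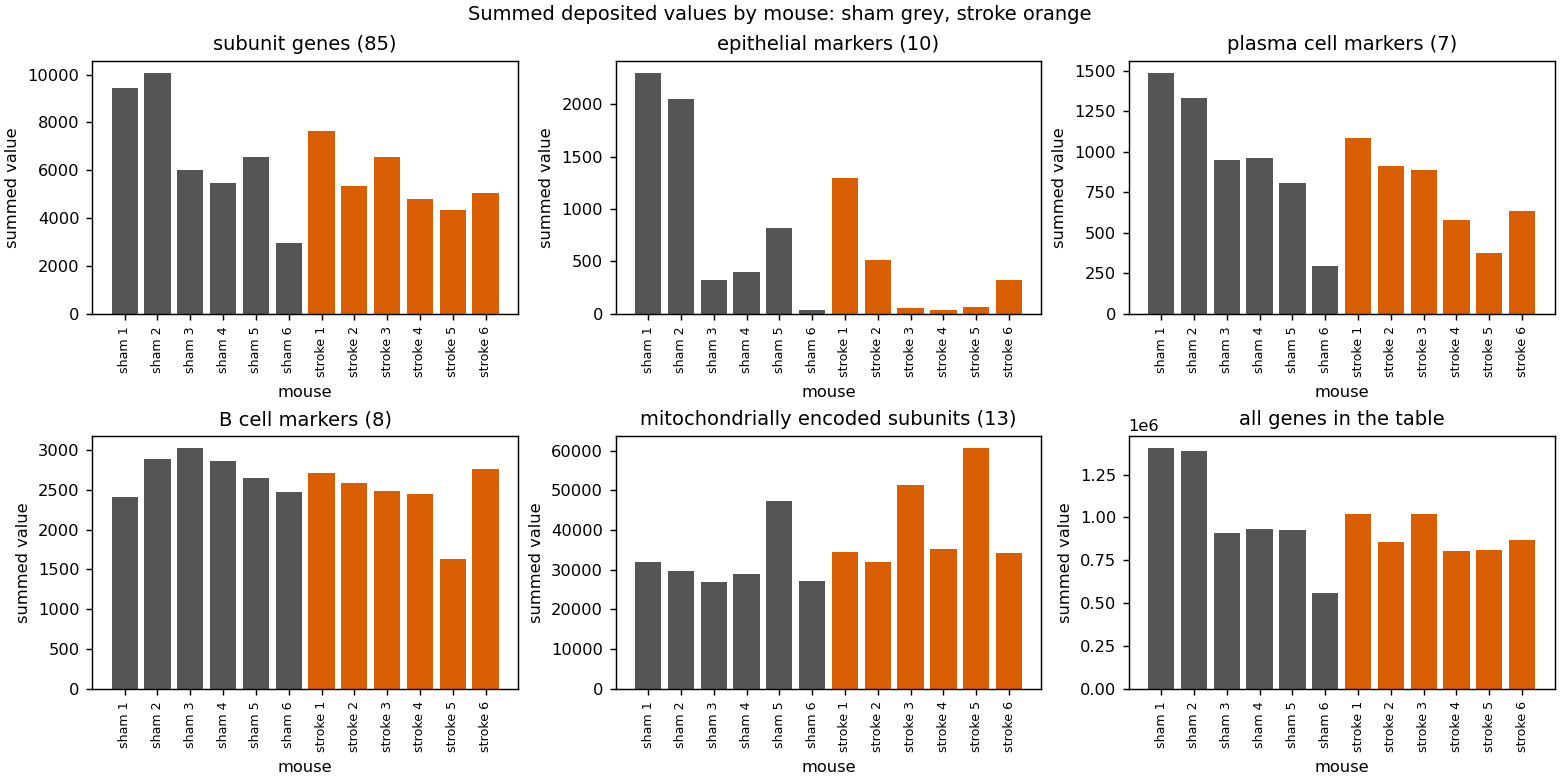
Summed deposited values in each of the 12 mice (bars from 0; sham grey, stroke orange) for the 85 nuclear subunit genes, 3 marker lists, the 13 mitochondrially encoded subunits and all genes in the table. The subunit sum is highest in sham mice 1 and 2 and lowest in sham mouse 6 (2970), as are the plasma cell markers, while the B cell markers vary less.

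**Figure D3:**
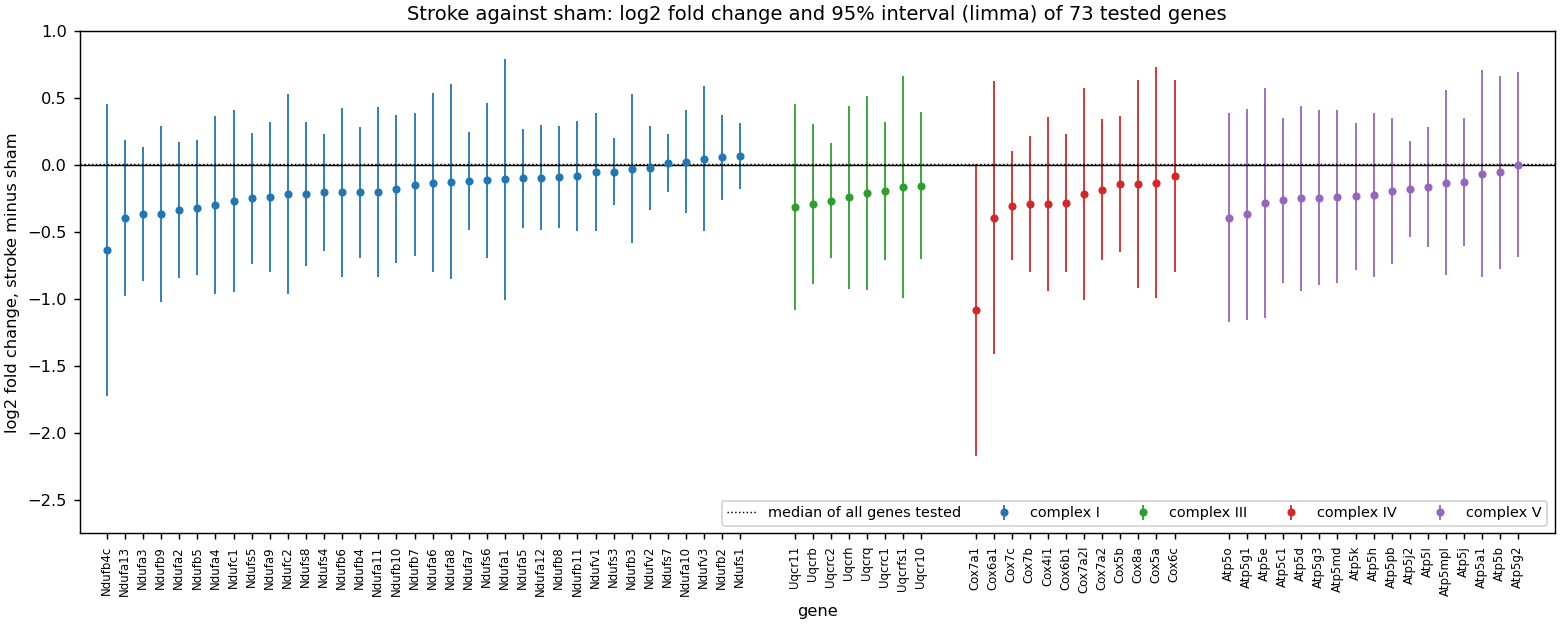
Log2 fold change (stroke minus sham) with its 95% interval from limma for 73 of the 74 tested genes, ordered within complexes I, III, IV and V. All 73 intervals drawn include 0, and 67 of the points lie below it.

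In complex I, 32 of the 37 tested genes were lower and 5 higher by point estimate, with 0 called and a median log2 fold change of -0.13. The 7 core subunits, which carry the flavin and the iron-sulphur clusters from NADH to ubiquinone, had a median of -0.02, and the 30 tested accessory subunits, which surround and stabilize the core, had one of -0.19. Without sham mouse 1 the number lower was 24 of 37 and without sham mouse 2 it was 22, and 7 were lower without both. Without sham mice 1, 2 and 6 it was 28 (median -0.12). Without sham mouse 6 alone it was 35 (median -0.38), and 9 were called lower, where 9.20% of all genes were. With libraries rescaled to the same total, 19 were lower and 18 higher, with a median of -0.0034.

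The core subunits held the steadiest genes of the whole set. Ndufs7, which helps form the ubiquinone pocket, ran from 57.9 to 70.2 in sham controls (median 68.1) and from 59.1 to 74.8 in stroke mice (median 67.7). Ndufs1, the largest iron-sulphur subunit, ran from 49.8 to 64.3 (median 58.2) and from 52.9 to 76.2 (median 59.1). Ndufs3, another core subunit, had values of 25.2 to 34.0 (median 27.8) in sham controls and 23.5 to 31.9 (median 28.1) in stroke mice. In all 3 genes the groups overlapped nearly completely, although sham mouse 6 stood below the other sham controls in Ndufs7. Their log2 fold changes were 0.02 for Ndufs7 (SE 0.1003, limma adjusted p = 0.975), 0.07 for Ndufs1 (SE 0.116, limma adjusted p = 0.911) and -0.05 for Ndufs3 (SE 0.117, limma adjusted p = 0.937).

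Ndufv1, Ndufv2 and Ndufs8, also of the core, varied more. Ndufv1, which binds NADH and the flavin, ran from 36.6 to 96.7 in sham controls (median 62.2) and from 52.0 to 71.0 in stroke mice (median 59.5). The stroke mice lay wholly inside the sham range. Ndufv2, its iron-sulphur partner, ran from 37.0 to 71.9 (median 52.8) and from 46.0 to 58.4 (median 51.9), and Ndufs8 from 31.1 to 95.05 (median 65.3) and from 35.1 to 71.5 (median 52.9). The log2 fold changes were -0.05 for Ndufv1 and -0.02 for Ndufv2, and both turned positive without sham mouse 1 and without sham mouse 2. That of Ndufs8 was -0.21 (SE 0.250, limma adjusted p = 0.875), and it was 0.03 without both mice.

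Among the accessory subunits the smallest p-values belonged to Ndufa3, Ndufa13 and Ndufa2. Ndufa3 ran from 39.8 to 112 in sham controls (median 76.4) and from 43.3 to 74.9 in stroke mice (median 55.1), and the log2 fold change was -0.37 (SE 0.232, limma p = 0.136, adjusted p = 0.793, exact permutation p = 0.175). Ndufa13, also known as GRIM-19 and linked to cell death and STAT3, ran from 23.5 to 87.5 (median 59.2) and from 29.4 to 52.8 (median 42.6), and its log2 fold change was -0.39 (SE 0.271, limma adjusted p = 0.814). For Ndufa2 the ranges were 41.1 to 116 (median 85.03) and 44.2 to 87.3 (median 60.0), with a log2 fold change of -0.34 (SE 0.236, limma adjusted p = 0.815). The lowest sham control lay below the lowest stroke mouse in each of the 3 genes, so the groups overlapped. All 6 stroke mice were below the sham mean for Ndufa13 and 5 of 6 for Ndufa3 and Ndufa2. These 3 differences stayed negative in every fit with a single mouse left out, between -0.64 and -0.23. Without sham mouse 6 all 3, chosen for their small p, were called at an unadjusted p under 0.05, where 9.20% of all genes were called lower.

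The most abundant complex I gene was Ndufa6, at 51.3 to 202 in sham controls (median 121) and 82.0 to 193 in stroke mice (median 105). Its log2 fold change was -0.13 (SE 0.310, limma adjusted p = 0.936). Stroke mouse 1 was the highest of its group at 193 and stood apart from the other 5. The least abundant tested gene was Ndufb6, at 6.56 to 26.2 (median 15.8) and 9.60 to 21.5 (median 11.4). Ndufa4, named for complex I and since assigned to complex IV, was kept under its name and ran from 12.9 to 55.9 (median 36.7) and from 21.1 to 40.1 (median 24.8). By point estimate Ndufb2, Ndufv3 and Ndufa10 were the accessory subunits that were higher, by 0.06, 0.05 and 0.03 on the log2 scale.

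Ndufb4c had the most negative difference in complex I, a log2 fold change of -0.63 (SE 0.505, limma adjusted p = 0.827). It is annotated as a processed pseudogene, and all of its 31-base words, the unit by which kallisto assigns reads by default, occur in Ndufb4. Its values of 19.7 to 85.5 in sham controls and 9.996 to 72.0 in stroke mice therefore cannot be fully separated from the reads of Ndufb4, which itself ran from 15.6 to 42.2 and from 20.3 to 35.7. No other tested subunit gene shared more than 50% of its words with other genes, and the median share was 7.08%.

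All 8 complex III genes were lower by point estimate, with 0 called and a median log2 fold change of -0.22. Of the 8, 1 was lower without sham mice 1 and 2, and 7 were lower when either of them alone was left out. All 8 were lower (median -0.15) without sham mice 1, 2 and 6. Without sham mouse 6 alone all 8 were lower (median -0.46) and 3 were called, where 9.20% of all genes were called lower. Uqcrc1 and Uqcrc2, the large core proteins on the matrix side, ran from 23.8 to 65.7 (median 44.2) and from 32.8 to 81.7 (median 62.2) in sham controls. In stroke mice they ran from 31.1 to 57.2 (median 36.1) and from 41.3 to 60.7 (median 49.1). Sham mouse 6 was the lowest of all 12 mice in both, and in Uqcrc2 it stood apart from its group. The log2 fold change of Uqcrc2 was the one with the smallest p in the complex, -0.26 (SE 0.201, limma p = 0.209, adjusted p = 0.821, exact permutation p = 0.247), and that of Uqcrc1 was -0.19 (SE 0.239, limma adjusted p = 0.876).

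Uqcrfs1, the Rieske iron-sulphur protein that takes the first electron from ubiquinol, ran from 10.9 to 71.6 in sham controls (median 33.2) and from 20.5 to 48.1 in stroke mice (median 31.4). This 6.58-fold range was the widest of the complex, and the stroke mice again lay inside the sham range. Its log2 fold change was -0.16 (SE 0.385, limma adjusted p = 0.936), and it was 0.02 without sham mouse 1 and 0.04 without sham mouse 2. Uqcrh, the hinge protein whose promoter is printed above, was the most abundant gene, at 78.8 to 306 (median 173) and 96.7 to 263 (median 142). Uqcrb, at 53.4 to 205 (median 114) and 69.3 to 148 (median 90.2), and Uqcr11, the smallest subunit, at 28.0 to 153 (median 85.2) and 42.7 to 96.7 (median 60.9), had log2 fold changes of -0.29 and -0.31. None of these was larger than the spread between mice.

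In complex IV all 12 tested genes were lower by point estimate, with 0 called and a median log2 fold change of -0.25. Without sham mouse 1 the number was 9, without sham mouse 2 it was 8 and without both it was 3. Without sham mouse 6 as well it was 11 (median -0.18). Without sham mouse 6 alone it was 12 (median -0.46), and 6 were called lower, where 9.20% of all genes were. The complex has a catalytic core of 3 mitochondrially encoded subunits, and the nuclear subunits described here surround it and tune it. Several come as pairs of isoforms, one of them broadly expressed and the other made mainly in heart, muscle or testis.

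Cox7a1, the heart and muscle form of subunit VIIa, had the largest difference and the smallest p of all 74 genes. Its value was 44.6, 42.2, 10.5, 8.04, 17.2 and 5.33 in sham mice 1 to 6 and, in the same order, 10.7, 8.02, 3.30, 4.17, 11.4 and 9.88 in the 6 stroke mice. Sham mice 1 and 2 lay far above every stroke mouse and sham mouse 5 less far, while sham mice 3, 4 and 6 lay within the stroke range. The log2 fold change was -1.08 (SE 0.505, 95% interval -2.17 to 0.01, limma p = 0.0516, adjusted p = 0.791), and the exact two-sided permutation p over the 12 mice was 0.0974. Without sham mice 1 and 2 the log2 fold change of Cox7a1 was -0.37. The unadjusted p was under 0.05 without sham mouse 3, 4 or 6 and without stroke mouse 1 or 5, and the log2 fold change with 1 mouse left out ran from -1.38 to -0.79. The muscle markers were near 0 in every mouse, with Des and Myl9 below 1, while sham mice 1 and 2 also had the highest sums of epithelial, plasma cell and macrophage markers. The part of those cells in this value was not tested.

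The broadly expressed form, Cox7a2, ran from 27.9 to 71.2 in sham controls (median 44.1) and from 30.8 to 59.5 in stroke mice (median 37.2), and the log2 fold change was -0.18 (SE 0.243, limma adjusted p = 0.883). Cox7a2l, a related protein that helps complexes III and IV join into supercomplexes, ran from 26.8 to 160 (median 94.8) and from 49.7 to 122 (median 77.5). Cox6a1 ran from 15.3 to 167 in sham controls (median 88.0) and from 43.9 to 89.95 in stroke mice (median 55.8). This 10.9-fold range between mice was wider than that of any other tested subunit gene except Cox7a1, and sham mouse 6 alone held its low end. Cox6a1 had a log2 fold change of -0.39 (SE 0.472, limma adjusted p = 0.876). Cox8a, the broad form of the smallest subunit, ran from 35.0 to 216 (median 129) and from 80.7 to 155 (median 103), again with sham mouse 6 far below the rest.

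Cox7c and Cox7b had the next smallest p-values. Cox7c ran from 66.7 to 151 (median 96.9) in sham controls and from 69.4 to 117 (median 79.4) in stroke mice, and the log2 fold change was -0.30 (SE 0.190, limma p = 0.136, adjusted p = 0.793, exact permutation p = 0.158). Cox7b ran from 59.0 to 146 (median 99.7) and from 55.6 to 108 (median 74.7), and its log2 fold change was -0.29 (SE 0.234, limma adjusted p = 0.831). Stroke mouse 1 stood apart from its group in Cox7c, and 5 of the 6 stroke mice were below the sham mean. Cox6b1, which faces cytochrome c at the intermembrane side, ran from 52.9 to 139 (median 94.2) and from 61.4 to 101.6 (median 68.8).

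The subunits that are common to all tissues or nearly so showed the same overlap. Cox4i1, the largest nuclear subunit and a site of regulation by ATP, ran from 87.2 to 385 in sham controls (median 211) and from 140 to 232 in stroke mice (median 176), and the log2 fold change was -0.29 (SE 0.302, limma adjusted p = 0.861). Cox5a ran from 12.3 to 82.4 (median 47.6) and from 27.2 to 65.8 (median 38.5), and Cox5b from 73.0 to 217 (median 133) and from 95.5 to 155 (median 113). Cox6c was the most abundant complex IV gene, at 118 to 568 (median 304) and 205 to 418 (median 282). The stroke mice of all 4 genes lay inside the sham range. Log2 fold changes were -0.13 for Cox5a, -0.14 for Cox5b and -0.08 for Cox6c, and all 3 turned positive when sham mouse 2 was left out, as Cox5a and Cox6c did without sham mouse 1.

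Other than Cox7a1, the isoforms made mainly in other tissues were at or near 0. Cox4i2, Cox6a2, Cox7b2 and Cox8c did not exceed 1.54 in any mouse, and Cox6b2 and Cox8b did not exceed 2.30 and 3.003. Ndufa4l2, a relative of Ndufa4 that is induced by hypoxia, reached at most 1.43. The annotated processed pseudogenes Cox6c2, Ndufa11b and Ndufs6b reached at most 1.17, 4.32 and 1.27, and another identifier with the symbol Atp5o was listed at 0 in all 12 mice. These 11 genes did not reach a value of 1 in each mouse and were not tested. Of the 13 genes left out for a name with -ps, Ndufb1-ps had a mean value of 75.9 in sham controls and 67.6 in stroke mice.

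In complex V, 16 of the 17 tested genes were lower by point estimate, with 0 called and a median log2 fold change of -0.23. Without sham mouse 1 it was 13 of 17, without sham mouse 2 it was 12 and without both it was 1. Without sham mouse 6 as well all 17 were lower (median -0.14). Without sham mouse 6 alone all 17 were lower (median -0.41) and 5 were called, where 9.20% of all genes were called lower. The 5 genes of the catalytic F1 part were all lower with a median of -0.25, and of the other 12, the peripheral stalk and membrane part, 11 were lower with a median of -0.21.

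Atp5b, the catalytic beta subunit, was the most abundant of all the nuclear subunit genes. It ran from 129 to 680 in sham controls (median 403) and from 298 to 526 in stroke mice (median 338). Its log2 fold change was -0.05 (SE 0.335, 95% interval -0.77 to 0.67, limma adjusted p = 0.977), and it was 0.11 without sham mouse 2 and 0.33 without both sham mice 1 and 2. Atp5a1, the alpha subunit that alternates with beta in the F1 ring, ran from 26.0 to 159 (median 90.6) and from 61.6 to 111 (median 78.4), and its log2 fold change was -0.06 (SE 0.360, limma adjusted p = 0.974). Atp5c1, the central gamma shaft, ran from 53.2 to 212 (median 128) and from 82.5 to 150 (median 99.2), with a log2 fold change of -0.26 (SE 0.285, limma adjusted p = 0.863). In all 3 genes the stroke mice lay inside the sham range, with sham mouse 6 at its bottom. Atp5a1, like Atp5b, turned positive without sham mouse 1 and without sham mouse 2.

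The c subunits form the rotor ring, and 3 genes encode the same mature protein with different import sequences. Atp5g3 was the most abundant of them, at 34.7 to 144 in sham controls (median 83.0) and 51.5 to 99.2 in stroke mice (median 69.2). Atp5g2 ran from 10.4 to 50.6 (median 42.2) and from 26.0 to 38.9 (median 33.8), and Atp5g1 from 8.43 to 43.9 (median 23.7) and from 12.8 to 31.7 (median 16.2). The groups overlapped in all 3. The log2 fold changes were -0.24, 0.0037 and -0.37, each smaller than or close to its standard error of 0.304, 0.321 and 0.366.

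The smallest p-values of complex V belonged to Atp5j2, Atp5o and Atp5g1. Atp5j2, subunit f of the membrane part, ran from 47.2 to 89.5 (median 63.4) and from 51.0 to 73.4 (median 56.7), with a log2 fold change of -0.18 (SE 0.166, limma p = 0.298, adjusted p = 0.850, exact permutation p = 0.305). Atp5o, the oligomycin sensitivity protein at the top of the peripheral stalk, ran from 26.9 to 153 (median 84.8) and from 45.2 to 99.99 (median 61.1), and its log2 fold change was -0.39 (SE 0.362, limma adjusted p = 0.850). Of the other abundant genes, Atp5mpl, a small proteolipid of the membrane part, ran from 116 to 513 (median 295) and from 199 to 396 (median 275), and Atp5h, subunit d of the stalk, from 105 to 403 (median 244) and from 145 to 281 (median 210). Neither difference exceeded the spread between mice.

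The nuclear subunit genes varied more between mice than most genes tested. The median SD of log2(value + 0.5) over the 12 mice was 0.48, compared with 0.31 for all genes tested and 0.28 for the 2733 other genes with a mean value of at least 50. The SD was larger in sham controls than in stroke mice for 69 of the 74 genes (93.2%), compared with 60.4% of all genes tested. Sham mouse 6 was the lowest mouse in 66 of the 74 (89.2%), compared with 27.2% of all genes and 41.1% of the other abundant genes. Either sham mouse 1 or sham mouse 2 was the highest in 68 (91.9%), compared with 32.8% and 38.0%. Genes of the set are not independent of each other, and these shares are a description of the 12 libraries. Neighbouring sets varied too, with a median SD of 0.54 for the 13 mitochondrially encoded subunits and 0.47 for 5 genes of complex II and cytochrome c, and in all 5 of the latter sham mouse 6 was lowest and sham mouse 1 or 2 highest.

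By complex, the median SD was 0.45 for complex I, 0.56 for complex III, 0.59 for complex IV and 0.57 for complex V. Within complex I it was 0.23 for the core and 0.46 for the accessory subunits. Transcript length and SD had a Spearman rho of -0.11 across the 74 genes. Actb, which encodes beta-actin, had a similar order of mice, with 735 in sham mouse 6 and 7250 in sham mouse 2.

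**Figure D4:**
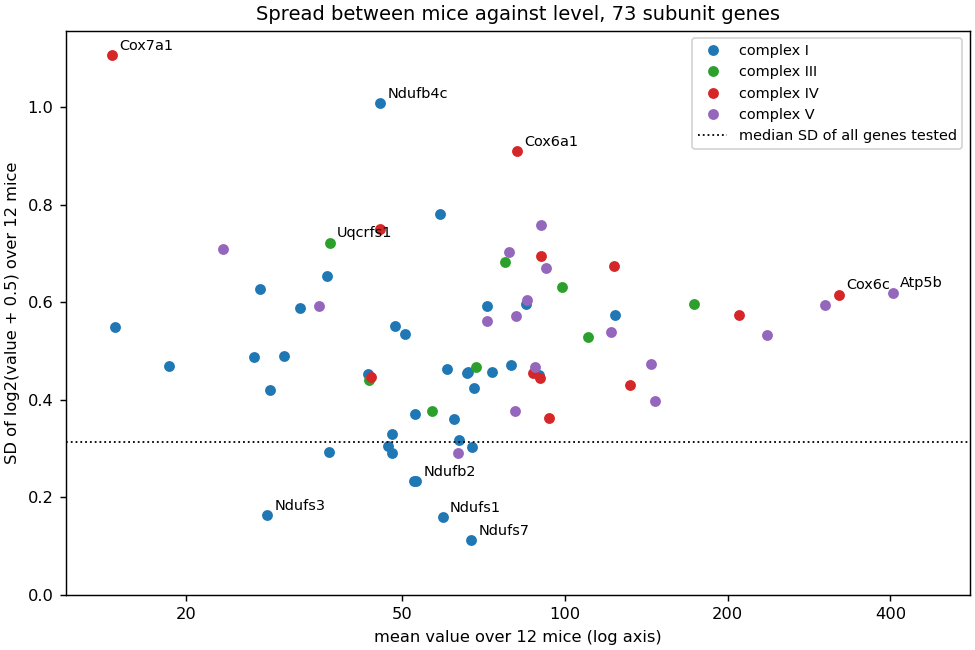
SD of log2(value + 0.5) over the 12 mice against the mean deposited value (log axis) for 73 of the 74 tested nuclear subunit genes, coloured by complex, with the median SD of all genes tested (0.31) as a dotted line. Most genes lie above the line at every level, Cox7a1, Ndufb4c and Cox6a1 highest, and Ndufs1, Ndufs3 and Ndufs7 of the complex I core lie well below it.

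Other genes of the pathway were read from the same fit. Of complex II and cytochrome c, which carries electrons between complexes III and IV, 4 of 5 genes were lower by point estimate with a median of -0.24 and 0 called. Without sham mice 1 and 2 it was 1 of 5 (median 0.14), and without sham mouse 6 as well 4 of 5 (median -0.16). Cycs, the gene for cytochrome c, had the smallest p of them, with a log2 fold change of -0.32 (SE 0.190, limma adjusted p = 0.793). Of the pair of nuclear subunits whose names the rule does not take, Cyc1, the haem-bearing cytochrome c1 of complex III, ran from 27.4 to 58.4 in sham controls (median 50.1) and from 30.1 to 39.1 in stroke mice (median 31.9). It was called lower at an unadjusted p, with a log2 fold change of -0.40 (SE 0.182, limma p = 0.0442, adjusted p = 0.791, exact permutation p = 0.0628), and without sham mouse 1, 2, 4 or 5 or stroke mouse 2, 4, 5 or 6 the p was no longer under the threshold. The call was also lost without both sham mice 1 and 2 and with libraries rescaled to the same total. Without sham mice 1, 2 and 6 Cyc1 was called lower, where 2.19% of all genes were. The other, Ndufab1, the acyl carrier protein, had a log2 fold change of -0.19 and was not called.

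The assembly factors, which build the complexes without staying in them, varied less. Of the 47 tested genes of the assembly lists, which include the ATP synthase inhibitor Atpif1, 31 were lower by point estimate, with a median of -0.10 and a median SD of 0.32, and sham mouse 6 was the lowest in 25.5% of them. In the complex I list of 16 genes, 8 were lower and 8 higher, and 1 was called in each direction (of all genes tested, 4.42% were called higher and 1.69% lower). Ndufaf6 ran from 12.0 to 23.5 in sham controls (median 15.4) and from 8.96 to 13.2 in stroke mice (median 10.7), and the log2 fold change was -0.55 (SE 0.167, limma p = 0.0055, adjusted p = 0.716, exact permutation p = 0.0065). Ecsit, which also acts in Toll-like receptor signalling, ran from 14.4 to 19.6 (median 15.3) and from 16.9 to 22.3 (median 18.7), with a log2 fold change of 0.29 (SE 0.112, limma p = 0.0223, adjusted p = 0.772, exact permutation p = 0.0108). Neither had an adjusted p under 0.05, and both lost the unadjusted call when libraries were rescaled to the same total. Ecsit also lost it without stroke mouse 1 or without stroke mouse 3. Of the complex IV list 16 of 20 were lower (median -0.18), of the complex III list 3 of 6 (median 0.05) and of the complex V list 4 of 5 (median -0.20), each with 0 called. Without sham mice 1 and 2 the complex IV list had 13 of 20 lower (median -0.07), and rescaled to the same total also 13 (median -0.06). It had 18 of 20 lower without sham mice 1, 2 and 6 (median -0.16) and without sham mouse 6 alone (median -0.25). The complex V list had 1 of 5 lower (median 0.15) without sham mice 1 and 2, and 2 of 5 (median 0.01) without sham mouse 6 as well.

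The 13 subunits encoded by mitochondrial DNA went the other way by point estimate. Of these, 11 were higher in stroke mice with a median log2 fold change of 0.55, and 5 were called higher at an unadjusted p: mt-Co1, mt-Co2, mt-Nd1, mt-Nd5 and mt-Nd6, where 4.42% of all genes tested were called higher. Their summed value ran from 26895 to 47298 in sham controls (median 29232) and from 31941 to 60655 in stroke mice (median 34883). Sham mouse 5 and stroke mice 3 and 5 were highest and the groups overlapped. The catalytic subunit mt-Co2 ran from 843 to 3373 (median 1768) and from 2456 to 5823 (median 2714), with a log2 fold change of 0.85 (SE 0.311, limma p = 0.0171, adjusted p = 0.748, exact permutation p = 0.0325). Without sham mice 1 and 2 the median was 0.33 and 1 gene, mt-Atp6, was called, where 3.56% of all genes were called higher, and without sham mice 1, 2 and 6 the median was 0.21 with 0 called. Without sham mouse 5, 9 were called higher, where 4.36% of all genes were. Divided by the sum of the 85 nuclear genes, the mitochondrial sum was 2.94 to 9.10 in sham controls (median 4.87) and 4.52 to 13.9 in stroke mice (median 7.07). The ratio was lowest in sham mice 1 and 2 and highest in stroke mouse 5, and it was not tested.

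**Figure D5:**
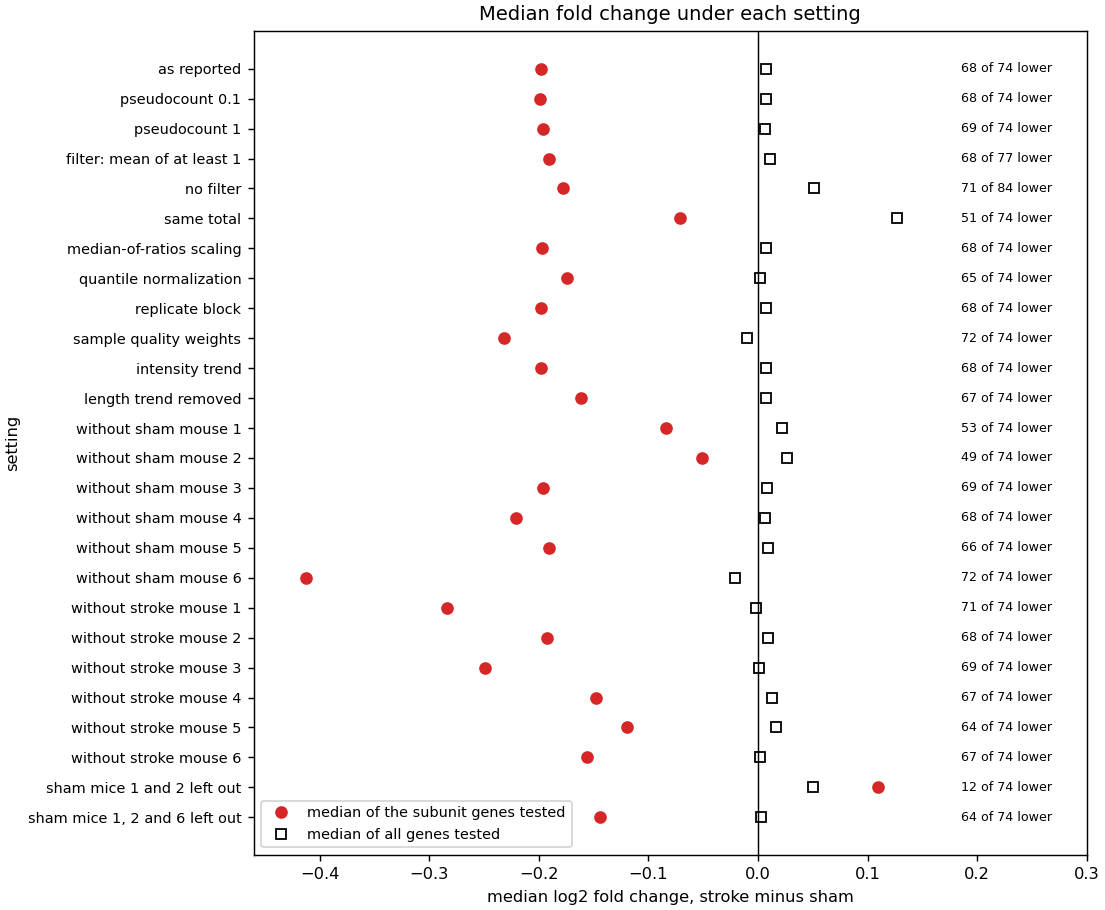
Median log2 fold change (stroke minus sham) of the tested nuclear subunit genes (filled circles) and of all genes tested (open squares) as reported and under each other setting, with the number of subunit genes lower at the right. The median of the subunit genes is below 0 in every setting drawn except when sham mice 1 and 2 are both left out, where it is 0.11.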

How the data were processed

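RNA sequencing was performed on PP B cells of 6 sham controls and 6 stroke mice. According to the study's methods and the submitters' processing notes, the authors trimmed reads with Trimmomatic 0.39, quantified them with kallisto 0.48.0 against mouse transcripts on GRCm38 and summarised them by gene with sleuth 0.30.0 in R 4.1.2. The deposited values are an expression signal that the authors labelled normalized TPM. Their column totals differ, so they were treated as a signal, although the tests had been planned for TPM. No read counts were used, and the precision that depth gives is unknown.

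From the table, log2(value + 0.5) was fitted with limma 3.58.1 in R 4.3.3 for genes that reached 1 in each of the 12 mice, without covariates, with Benjamini-Hochberg adjustment over all genes tested. A call is an unadjusted p under 0.05. Single genes were also compared with an exact two-sided permutation test over the 12 mice. The fit was tested on simulated data. Gene coordinates are those of GENCODE M21 on GRCm38, in which all 85 subunit genes were found.

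Genes named are the core subunits, the isoform families, the 3 with the smallest p and the most and least abundant gene of each complex, and those that were not tested. For 1 gene of this rule the values are not reported here, although counts and medians over all members include it. Ndufb4, Ndufb4c, Ndufb2, Ndufv3, Ndufa10, Atp5h and Atp5mpl were named after their values were seen. The members and lists were chosen with earlier results of these data known. Alternatives were other pseudocounts, filters and scalings, quality weights, an intensity trend, a length trend, the replicate number as a block, and mice left out. The labels give each library a group and a number. The study gives 6 mice per group, so each library was taken as 1 mouse. No sample was excluded from the reported values.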

Additional observations from a re-analysis of the deposited data

Results flagged for a closer look

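In 90 groups of 6 mice, the lowest or highest mouse was compared with its neighbours on the log2 scale, and chance alone marks about 1 in 20 such groups. The genes share mice, so the 8 marks are not independent of each other. Sham mouse 6 was far below the other 5 sham controls in 6 genes, with deposited values of 26.0 for Atp5a1, 15.3 for Cox6a1, 26.8 for Cox7a2l, 35.0 for Cox8a, 57.9 for Ndufs7 and 32.8 for Uqcrc2. Stroke mouse 1 was far above the other 5 stroke mice in Cox7c, at 117, and in Ndufa6, at 193. The epithelial marker sum was 35.3 in sham mouse 6, the lowest of the sham controls, and 1298 in stroke mouse 1, the highest of the stroke mice, and the part of those cells in these values was not tested.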

How the results depend on the processing

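No subunit gene had an adjusted p under 0.05 under any alternative tried. The count of subunit genes called lower stayed at 0 with other pseudocounts and filters. It was 1, Cox7a1, with libraries rescaled to the same total, with median-of-ratios scaling, with quantile normalization, with an intensity trend and with a length trend removed, where from 0.548% to 2.60% of all genes were called lower. It was 5 with sample quality weights (Cox7a1, Ndufa13, Ndufa2, Ndufa3 and Uqcrc2), where 5.58% were. With 1 mouse left out it ran from 0 to 23, and without sham mice 1 and 2, chosen after seeing the data, it was 0. No subunit gene was called higher in any of these. The cause of these shifts was not tested. The 95% interval of a subunit gene reached a median of 0.56 to either side on the log2 scale, and 0.32 in the complex I core.

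Over all genes, the count called was 1418 higher and 350 lower with no filter on low values, and 348 higher and 69 lower with libraries rescaled to the same total. Quantile normalization gave 327 lower, quality weights gave 866 higher and 703 lower, and leaving out sham mice 1 and 2 gave 139 lower. With 1 mouse left out the counts ran from 396 to 937 higher and from 144 to 1158 lower.

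The replicate numbers 1 to 6 are shared by both groups, and the labels do not say what they stand for. The main fit did not pair the mice, and whether the numbers mark pairs or batches is unknown. Deviations from the group means of same-numbered mice had correlations from 0.0134 to 0.494 (mean 0.218, compared with -0.0414 for other pairs), and 2 of 6 sham mice correlated best with their own number. Blocking by replicate number, 770 genes were called higher and 404 lower, 1 of the latter a subunit gene (Cox7a1). Ecsit was no longer called, and 9 of the 13 mitochondrially encoded subunits were called higher, where 6.12% of all genes were.

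The log2 fold change of several genes changed sign, all without a call. Rescaled to the same total, it was 0.0645 for Atp5a1, 0.0738 for Atp5b, 0.0448 for Cox6c, 0.0752 for Ndufs3, 0.0768 for Ndufv1 and 0.11 for Ndufv2, while the median of all genes moved to 0.13. Quantile normalization gave 0.11 for Atp5b and 0.022 for Cox6c. Quality weights gave -0.0671 for Atp5g2, -0.0156 for Ndufs1 and -0.016 for Ndufs7, and a pseudocount of 1 gave -0.0002 for Atp5g2.

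Without sham mice 1 and 2 together, the value was 0.35 for Atp5a1, 0.33 for Atp5b, 0.0616 for Atp5c1, 0.061 for Atp5g1, 0.13 for Atp5g3, 0.0275 for Atp5j2 and 0.0227 for Atp5o. In complex IV it was 0.11 for Cox4i1, 0.31 for Cox5a, 0.15 for Cox5b, 0.13 for Cox6a1, 0.0058 for Cox6b1, 0.34 for Cox6c, 0.10 for Cox7a2, 0.17 for Cox7a2l and 0.26 for Cox8a. In complex I it was 0.052 for Ndufa4, 0.23 for Ndufa6, 0.0925 for Ndufb6, 0.0343 for Ndufs8, 0.21 for Ndufv1 and 0.14 for Ndufv2. In complex III it was 0.0907 for Uqcr11, 0.0355 for Uqcrb, 0.0584 for Uqcrc1, 0.33 for Uqcrfs1 and 0.11 for Uqcrh. Without sham mouse 6 as well, 64 of the 74 subunit genes were lower (median -0.14), and the value was -0.14 for Atp5g2, 0.0241 for Cox6c, -0.012 for Ndufs7, 0.0431 for Ndufv1 and 0.0282 for Ndufv2.

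With 1 mouse left out at a time, the value ran from -0.41 to 0.11 for Atp5a1, from -0.37 to 0.11 for Atp5b, from -0.32 to 0.13 for Atp5g2, from -0.48 to 0.0581 for Cox5a, from -0.31 to 0.0004 for Cox5b, from -0.36 to 0.10 for Cox6c and from -0.49 to 0.034 for Cox8a. It ran from -0.38 to 0.0179 for Ndufa6, from -0.09 to 0.0013 for Ndufs3, from -0.023 to 0.0557 for Ndufs7, from -0.20 to 0.0795 for Ndufv1, from -0.12 to 0.0694 for Ndufv2 and from -0.49 to 0.0431 for Uqcrfs1.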

Other observations

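Of the genes left out because their names carry -ps, 3 reached a value of 1 in each mouse. Ndufb1-ps ran from 33.3 to 109 in sham controls (median 78.4) and from 58.5 to 96.0 in stroke mice (median 62.8), a level like that of the complex I subunits, with a log2 fold change of -0.09 (SE 0.252, limma adjusted p = 0.947). Ndufs5-ps ran from 5.04 to 15.0 (median 9.95) and from 9.91 to 14.8 (median 12.6), with a log2 fold change of 0.30 (SE 0.208, limma adjusted p = 0.815). Cox7c-ps1 ran from 4.15 to 11.3 (mean 7.30) and from 4.87 to 7.63 (mean 6.10), with a log2 fold change of -0.20 (SE 0.191, limma adjusted p = 0.855). In Cox7c-ps1 sham mouse 6 was the highest of the 12 mice and sham mouse 1 the lowest, whereas sham mouse 6 was the lowest of the 12 in Cox7c and in Ndufb1-ps.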
